A study of Mus musculus with 11 samples.

Results

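Membrane transport was described through 45 transcripts of 40 genes that encode solute carriers, ion channels and transport ATPases in enteric glial cells treated with ATP. They were selected on the authors' own test of ATP against control, since each is a row of their table of significant genes, which holds 2071 transcripts of 1829 genes. From that table, the transcripts whose symbol begins with Slc, Abc, Kcn, Cacn, Scn, Atp1, Atp6 or one of several other channel prefixes were taken, and genes of the authors' gliosis, cytokine, motility and MAPK tables were left out. Because the same contrast chose the members, every difference below is a description and none is tested. The symbol rule also brought in 2 genes that move no solute, the noncoding RNA Kcnq1ot1 and the ribosome recycling factor Abce1, and it took Atp13a3 through the prefix Atp1. No row of the table began with Clcn, Aqp, Atp2, Atp8, Ano, Gja or the Trp channel prefixes.

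Primary mouse enteric glial cell cultures (msEGCs), grown from the small bowel muscle layer of adult C57BL/6 mice (BL6 in the labels), received 100 µM ATP for 6 h (6 libraries) or no ATP (5 libraries). Both groups had been kept in the same differentiation medium, with B27, N2 and EGF, before the treatment. The treatment field of the labels names ATP for all 11 libraries, so the groups come from the library titles, and no label says whether libraries came from separate animals. The libraries were QuantSeq 3′ mRNA-Seq, which reads the 3′ end of each polyadenylated RNA. Values are the authors' group means, called depth-scaled signal here although no label states the scaling, and a ratio below is the mean of ATP over the mean of control. The deposited tables give no value per library, so no depth, standard deviation or overlap between libraries can be given, and a value belongs to the transcript name that the authors assigned.

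Solute carriers move amino acids, sugars, metals and nucleotides across membranes with the help of ion gradients or by exchange, while ABC proteins and ion pumps spend ATP to do so. The sodium pump maintains the gradients on which many carriers depend, and the proton pump acidifies endosomes and lysosomes. Glial cells use such proteins to clear glutamate and potassium, to import cystine for glutathione and to keep zinc and other metals in range.

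After ATP, 26 member transcripts of 24 genes were higher and 19 of 16 genes were lower. The share higher was 57.8%, and over the 2070 rows of the whole table with a usable total it was 47.7%. A ratio of at least 2 was found for 13 members in the upward direction, where 20.4% of all rows reached it, and for 13 in the downward direction, where 32.9% did. Each of these member counts is 28.9% of the 45. Nothing is read from these shares, because the contrast that chose the rows also gave the ratios. The depth scaling was undone only approximately, by applying the median factor from the gliosis table to every row, although the factor varied between transcripts. This raised all log2 ratios by 0.21. On that basis 20 members would be at least 2-fold higher and 12 at least 2-fold lower, against 32.6% and 24.6% of all rows. The median size of the log2 ratio was 1.18 among members and 1.04 among all rows. Only Abca8a, Slc35e4, Slc38a1 and Slc39a14 had several member transcripts, and none of these genes had them in both directions.

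**Figure D1:**
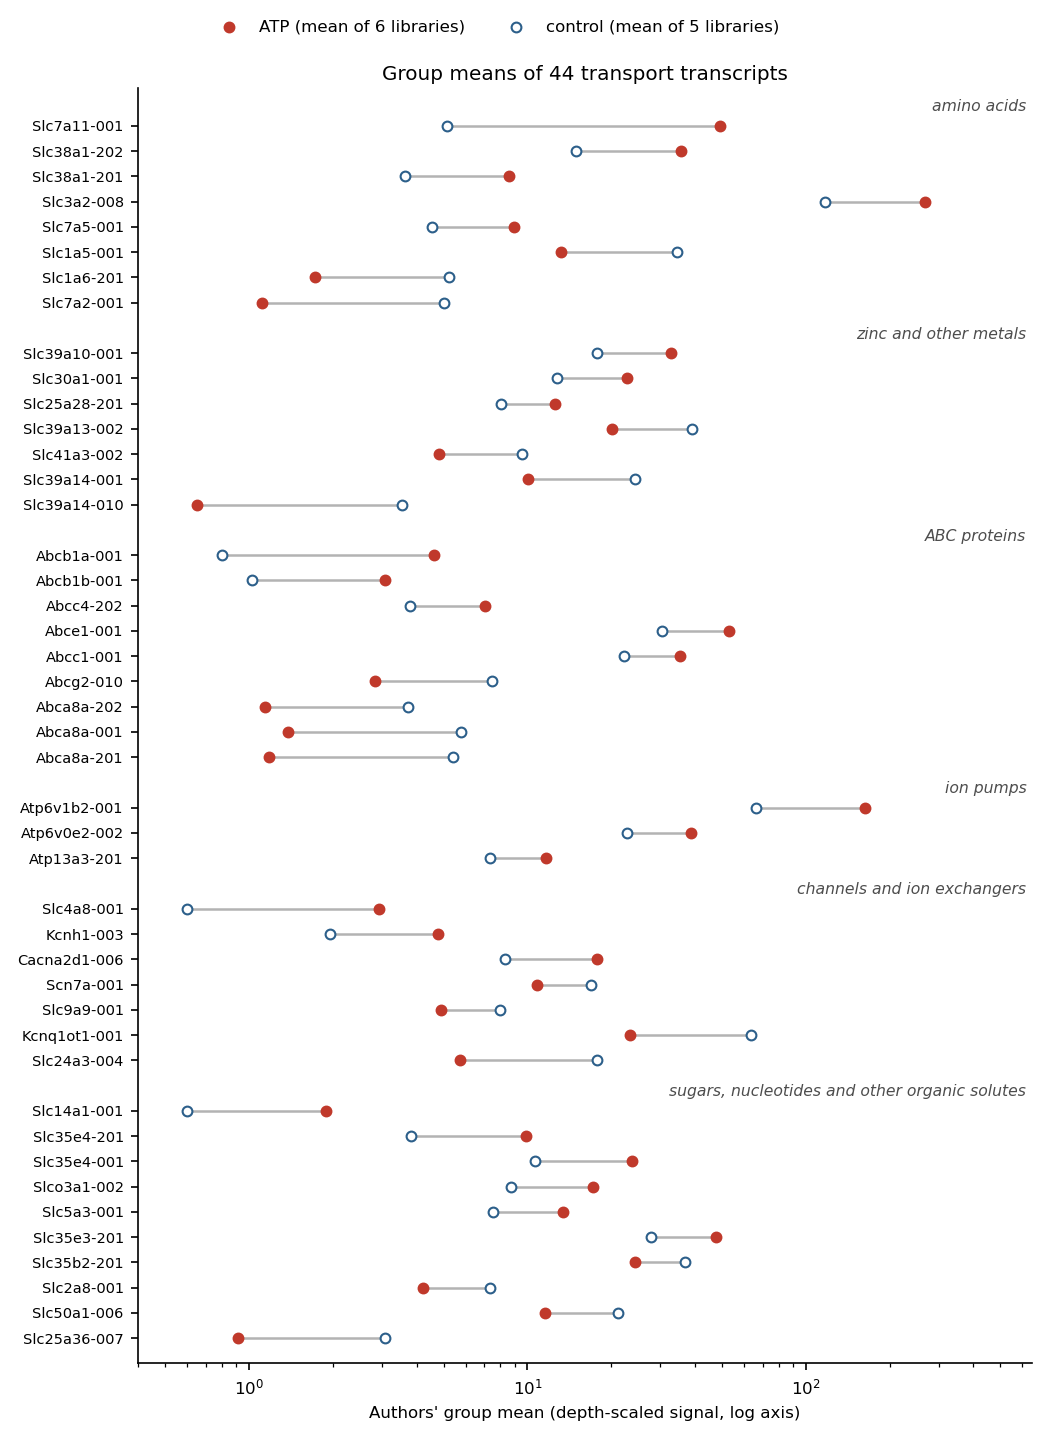
Mean of each of 44 member transcripts after ATP (filled, 6 libraries) and in control cells (open, 5 libraries), as depth-scaled signal on a log axis, grouped by what the protein moves. The 3 ion pump transcripts drawn all lie higher after ATP, while every other group holds transcripts in both directions.

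The smallest folds among the members were 1.51 for Slc35b2-201, which was lower after ATP, and 1.56 for Slc25a28-201, which was higher. Just outside, Slc35f6-001 of the motility table averaged 25.5 after ATP, against 18.04 in control cells, which is 1.41-fold higher, and it has no row in the table of significant genes. Slc12a2-201, the sodium, potassium and chloride cotransporter, was 1.62-fold higher and Slc25a5-001, a mitochondrial ADP and ATP carrier, was 1.82-fold higher in the table of significant genes, but both are cytokine response genes and so not members. The gap junction gene Gja1 and the glutamate transporter Slc1a3 are in the gliosis table alone, whose values are on another scale.

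Amino acid carriers held the highest ratio of all members. Slc7a11, the cystine and glutamate exchanger known as xCT, stood at 49.3 after ATP and at 5.14 in control cells. The ratio of Slc7a11-001 was 9.59, which ranked 15th from the top of the 2070 rows. Slc3a2, the heavy chain that carries Slc7a11 and Slc7a5 to the cell surface, had a mean signal of 267 after ATP, compared with 118 in control cells, a ratio of 2.27. Slc7a5, the light chain for large neutral amino acids, averaged 8.92 after ATP, against 4.53 in control cells, a ratio of 1.97. The heavy chain and both of its listed light chains were thus higher after ATP, by unequal factors. Slc38a1, a sodium-coupled carrier of glutamine and other small neutral amino acids, was listed with a pair of transcripts. Slc38a1-202 stood at 35.5 after ATP and at 15.0 in control cells, and Slc38a1-201 had 8.62 after ATP and 3.63 in control cells. Their ratios, both 2.38, were 0.00113% apart, so the pair gives 1 ratio for the gene.

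The other 3 amino acid carriers were lower. Slc1a5, a sodium-dependent exchanger of glutamine and other neutral amino acids, had a mean signal of 13.2 after ATP, compared with 34.4 in control cells, 2.61-fold lower. Slc1a6, a glutamate transporter known from Purkinje neurons, averaged 1.73 after ATP, against 5.21 in control cells, 3.01-fold lower. Slc7a2, which imports arginine and other cationic amino acids, stood at 1.12 after ATP and at 4.998 in control cells, 4.48-fold lower. Genes that handle glutamine thus stood on both sides, with Slc38a1 higher and Slc1a5 lower. Of 40 amino acid transporter genes listed for comparison, 7 had a row in the table of significant genes, 4 higher and 3 lower, and all 7 are members. The other 33 have no row there and can have been undetected, little changed or left out.

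The promoter of Slc7a11 is shown because it alone among the member windows had 2 matches to the letters TGATGNAA, the composite element bound by ATF4 with C/EBP proteins. Promoter windows of 300 bases, 250 before and 50 after the start site, came from RefSeq on GRCm38.p6 and were found for 29 of the 40 member genes (34 windows). At least 2 matches on either strand were found in 23 of all 32851 windows, or 0.07%. The stretch below runs from base -95 to base -16 before the start site, at chr3:50443629-50443708 on the minus strand, with the matches in capitals. They lie at -66 to -59 and, in the reverse orientation, at -47 to -40.
Slc7a11: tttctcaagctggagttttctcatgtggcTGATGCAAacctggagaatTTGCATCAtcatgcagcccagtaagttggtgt
The letters TGACNNNGC, the core of the antioxidant response element that NRF2 binds, had no match in this window. Slc3a2 had no match to either motif in its window, and promoter sequence of Slc7a5, Slc38a1, Slc1a5 and Slc7a2 was not used here.

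Metal transporters were higher in 3 transcripts and lower in 4. Slc30a1, or ZnT1, which exports zinc from the cell, had a mean signal of 22.9 after ATP, compared with 12.7 in control cells, 1.80-fold higher. Slc39a10, a zinc importer of the ZIP family, averaged 32.9 after ATP, against 17.8 in control cells, 1.85-fold higher. An exporter and an importer of zinc were therefore both higher. Slc39a13, a ZIP protein of the Golgi and vesicles, stood at 20.1 after ATP and at 39.2 in control cells, 1.95-fold lower. Slc39a14, which takes up zinc, manganese and iron not bound to transferrin, was listed with transcripts that differed in level. Slc39a14-001 had a mean signal of 10.05 after ATP, compared with 24.4 in control cells, 2.43-fold lower. Slc39a14-010 had 0.650 after ATP and 3.54 in control cells, 5.44-fold lower, or 2.75-fold with 1 added to both means. The ratios of this pair of Slc39a14 transcripts lay 124% apart, and when their means were summed the gene was 2.61-fold lower.

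Outside the zinc families, Slc25a28, which carries iron into mitochondria, averaged 12.5 after ATP, against 8.01 in control cells, 1.56-fold higher. Slc41a3, of a family of magnesium transporters, stood at 4.79 after ATP and at 9.59 in control cells, 2-fold lower. Of 28 genes for zinc transport and buffering, 5 had a row in the table, 3 higher and 2 lower. The only one that is no member is Mtf1, the zinc-sensing transcription factor that induces Slc30a1, whose transcript Mtf1-201 had a mean signal of 18.7 after ATP, compared with 11.4 in control cells, 1.64-fold higher. Mtf1-003 had 1.77 after ATP and 0.656 in control cells, 2.71-fold higher. Metallothionein genes Mt1, Mt2 and Mt3 have no row there.

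The promoter of Slc30a1 is shown for the metal response element, the site of MTF1, whose core was searched as TGCACNC or TGCGCNC. Bases -95 to -16 lie at chr1:191906686-191906765 on the plus strand. The capitals mark, first, a match to the antioxidant response element core at -82 to -74 and, second, a match to the metal response element core at -43 to -37, both in the reverse orientation.
Slc30a1: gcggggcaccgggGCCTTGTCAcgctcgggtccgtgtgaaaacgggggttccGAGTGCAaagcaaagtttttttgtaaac
Past the stretch shown, the Slc30a1 window had another match to the metal response element core, at +31 to +37, also in the reverse orientation. A match to the metal response element core is common, with 11 of 34 member windows (32.4%) and 25.7% of all windows. The window of Slc39a13, which was lower after ATP, also had one, at +18 to +24, so the letters do not go with 1 direction.

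ABC proteins that export drugs and conjugates were mostly higher. Abcb1a, a P-glycoprotein that pumps lipophilic drugs out of cells, averaged 4.62 after ATP, against 0.7997 in control cells, a ratio of 5.77 that ranked 29th of the 2070 rows. Abcb1b, its paralog, also on chromosome 5, stood at 3.08 after ATP and at 1.02 in control cells, a ratio of 3.01. With 1 added to both means the ratios were 3.12 for Abcb1a-001 and 2.02 for Abcb1b-001, since both control means were near 1. Both P-glycoprotein genes were thus higher, at low levels. On GRCm38 they both lie on the plus strand, Abcb1a at chr5:8660077-8748575 and Abcb1b at chr5:8798147-8866315. In the last 500 bases of their GENCODE M21 transcripts, 18.5% of the words of 50 bases of Abcb1a also occur in Abcb1b, so some reads could have been assigned to either gene.

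Abcc1, which exports glutathione conjugates, had a mean signal of 35.4 after ATP, compared with 22.2 in control cells, 1.59-fold higher. Abcc4, an exporter of cyclic nucleotides and prostaglandins, averaged 7.04 after ATP, against 3.78 in control cells, 1.86-fold higher. Abcg2, the breast cancer resistance protein that exports urate and drugs, went the other way and averaged 2.84 after ATP, against 7.49 in control cells, 2.64-fold lower. Of 11 efflux genes listed, 5 had a row, 4 higher and Abcg2 lower, and all 5 are members.

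The lipid transporter Abca8a had 3 transcripts in the table, all lower. The means of Abca8a-201 were 1.17 after ATP and 5.39 in control cells, 4.59-fold lower. Abca8a-001 had 1.38 after ATP and 5.79 in control cells, 4.21-fold lower, and Abca8a-202 had 1.14 after ATP and 3.71 in control cells, 3.25-fold lower. Summed over the 3 transcripts, Abca8a was 4.03-fold lower. It was the only 1 of 15 lipid ABC genes with a row. Abce1, an ABC protein that splits ribosomes after translation and transports nothing, stood at 53.1 after ATP and at 30.5 in control cells, 1.74-fold higher.

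The letters TGACGTCA, the full palindrome bound by CREB, occurred in 3 of the 34 member windows (8.82%) and in 1.79% of all windows. Those windows belong to Abce1, Abcg2 and the mitochondrial nucleotide carrier Slc25a36, and 60 bases around each match are shown because the members that share it differed in direction. They lie at chr8:79711741-79711800 on the minus strand for Abce1, chr6:58640476-58640535 on the plus strand for Abcg2 and chr9:97111172-97111231 on the minus strand for Slc25a36, with the palindrome in capitals.
Abce1: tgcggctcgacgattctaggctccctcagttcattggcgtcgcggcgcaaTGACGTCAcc
Abcg2: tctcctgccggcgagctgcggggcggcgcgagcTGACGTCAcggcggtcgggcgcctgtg
Slc25a36: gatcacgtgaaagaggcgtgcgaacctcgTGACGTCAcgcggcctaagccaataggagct
Abce1 was higher after ATP, while Abcg2 and Slc25a36 were lower. The Abcg2 stretch lies inside the gene, which GENCODE places at chr6:58584523-58695676, and so not at its outermost 5′ end. A window belongs to a RefSeq start site, which need not be the start of the listed transcript. The antioxidant response element core matched in 8 of 34 member windows (23.5%) and in 12.4% of all windows. Its matches were in windows of Abcb1a, Abcc4, Slc30a1 and Slc35e4, which were higher after ATP, and of Slc35b2, Slc39a13 and Kcnq1ot1, which were lower. The Abcb1a window, chr5:8566841-8567140, lies well upstream of the gene as GENCODE places it. A window of Abcc4 with a match, chr14:118676882-118677181, lies inside its gene. The AP-1 letters TGANTCA matched in 1 member window, that of Slc9a9, or 2.94%, and in 7.81% of all windows. The ATF4 and C/EBP letters TGATGNAA matched at least once in 3 member windows, those of Slc7a11, Slc50a1 and Slc9a9 (8.82%), and in 3.97% of all windows. A match is a description of the letters and not a binding site, and the antioxidant and AP-1 letters can overlap.

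**Figure D2:**
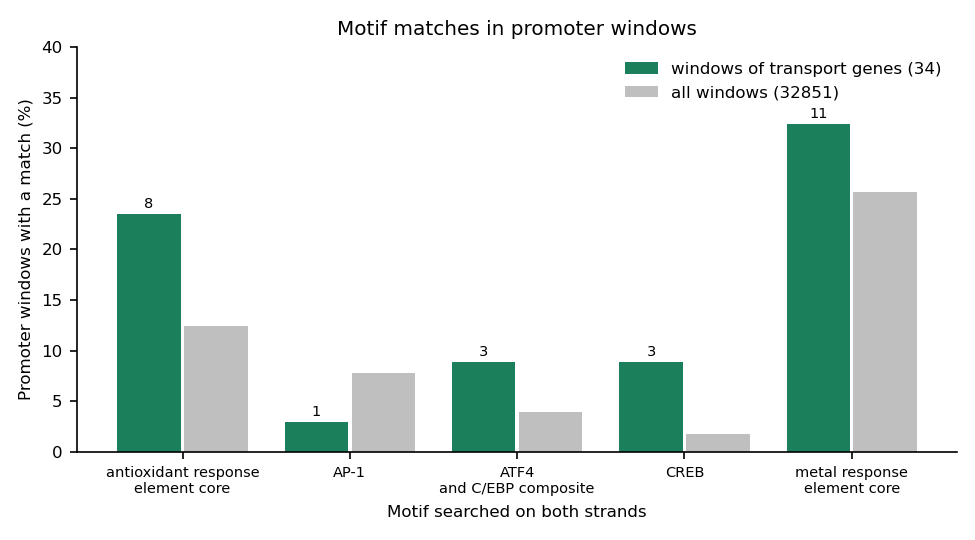
Share of promoter windows with at least 1 match to each motif, on both strands, for the 34 windows of member genes (left bars, with the number of windows above) and for all 32851 windows (right bars). Members have a higher share than all windows for 4 motifs and a lower share for AP-1, in counts of 1 to 11 windows.

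The 3 ion pump transcripts described here were higher after ATP. The means of Atp6v1b2, a nucleotide-binding subunit in the cytosolic part of the vacuolar proton pump, were 163 after ATP and 66.2 in control cells, 2.46-fold higher. Atp6v0e2, a subunit of the membrane part of that pump, averaged 38.7 after ATP, against 22.7 in control cells, 1.70-fold higher. Both sectors of the proton pump were thus represented, each by 1 subunit. Atp13a3, a P-type ATPase that transports polyamines, stood at 11.7 after ATP and at 7.34 in control cells, 1.59-fold higher. Of 21 genes for proton pump subunits, 2 had a row, and both are members. Of the words of 50 bases in the last 500 bases of Atp6v0e2, 10.3% occur in other genes.

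Ion channels and exchangers were split between directions. Kcnh1, a voltage-gated potassium channel of the ether-a-go-go family, had a mean signal of 4.79 after ATP, compared with 1.95 in control cells, 2.45-fold higher. Cacna2d1, an auxiliary subunit of voltage-gated calcium channels, averaged 17.8 after ATP, against 8.30 in control cells, 2.14-fold higher. Scn7a, a sodium-sensing channel that is expressed in glial cells, stood at 10.8 after ATP and at 17.0 in control cells, 1.57-fold lower. These were the only channel proteins among the members, each with 1 transcript. Of 33 genes for channels of potassium, chloride, water, calcium and sodium, the same 3 had a row.

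Among the exchangers, Slc4a8, which takes up bicarbonate with sodium in exchange for chloride, had a mean signal of 2.93 after ATP, compared with 0.597 in control cells, 4.91-fold higher. With 1 added to both means it was 2.46-fold higher. Slc24a3, which extrudes calcium together with potassium in exchange for sodium, averaged 5.75 after ATP, against 17.7 in control cells, 3.09-fold lower. Slc9a9, a sodium and proton exchanger of endosomes, stood at 4.91 after ATP and at 7.97 in control cells, 1.62-fold lower. Kcnq1ot1, the RNA read antisense to the potassium channel gene Kcnq1 and not a channel itself, had a mean signal of 23.3 after ATP, compared with 63.7 in control cells, 2.74-fold lower. Kcnq1 has no row in the table, so the RNA and the channel cannot be set side by side.

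Carriers of sugars, polyols and organic anions had mostly moderate ratios. Slc5a3, which imports the osmolyte myo-inositol, averaged 13.4 after ATP, against 7.495 in control cells, 1.79-fold higher. Slco3a1, a carrier of organic anions including prostaglandins, stood at 17.2 after ATP and at 8.76 in control cells, 1.96-fold higher. The urea transporter Slc14a1 had a mean signal of 1.89 after ATP, compared with 0.598 in control cells, 3.16-fold higher, or 1.81-fold with 1 added to both means. Both sugar transporters were lower. Slc2a8, an intracellular glucose transporter, averaged 4.21 after ATP, against 7.34 in control cells, 1.74-fold lower. Slc50a1, a sugar transporter of the SWEET family, stood at 11.6 after ATP and at 21.2 in control cells, 1.84-fold lower. Of 17 genes for the transport of glucose, polyols and monocarboxylates, Slc5a3, Slc2a8 and Slc50a1 alone had a row, and the remaining 14 had none.

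The SLC35 family holds nucleotide sugar carriers of the Golgi and several orphans. Slc35e4, an orphan, was listed with a pair of transcripts, both higher, with means of 23.8 after ATP and 10.7 in control cells for Slc35e4-001 and of 9.91 after ATP and 3.82 in control cells for Slc35e4-201, which are ratios of 2.24 and 2.59. Slc35e3, also an orphan, had a mean signal of 47.4 after ATP, compared with 27.9 in control cells, 1.70-fold higher, but 18.4% of its words of 50 bases occur in other genes, most of them in the predicted gene Gm7902. Slc35b2, which brings the sulfate donor PAPS into the Golgi, averaged 24.4 after ATP, against 36.8 in control cells, 1.51-fold lower. The members of this family thus differed in direction. Slc25a36, which carries pyrimidine nucleotides into mitochondria, stood at 0.910 after ATP and at 3.08 in control cells, 3.38-fold lower, or 2.14-fold with 1 added to both means, and 16.3% of its words are shared with the predicted gene Gm13217.

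**Figure D3:**
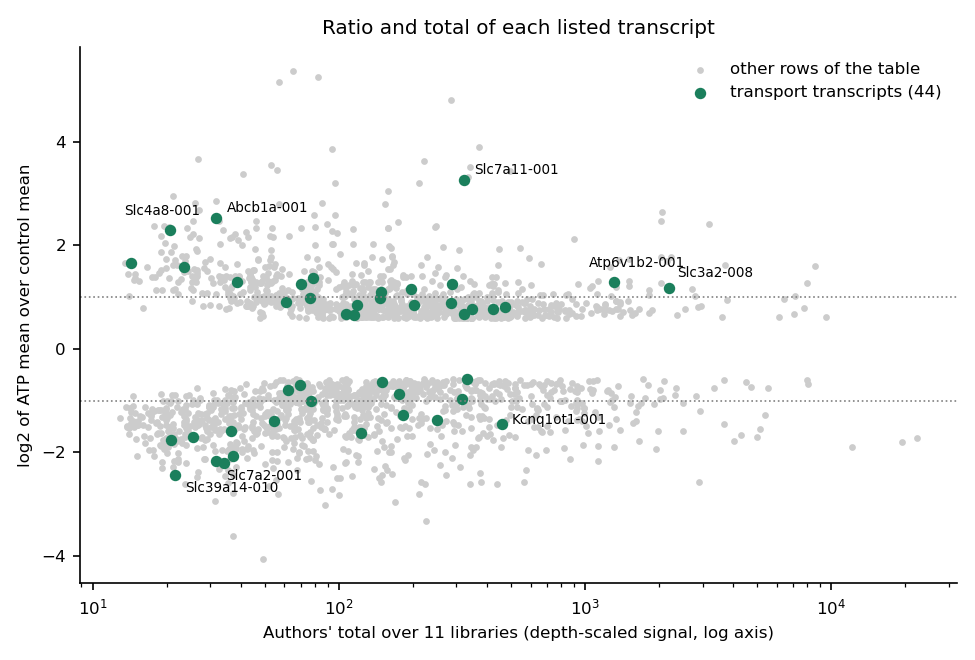
Log2 of the ATP mean over the control mean against the authors' total over 11 libraries (depth-scaled signal, log axis) for 44 members (green) and the other rows of the table (grey), with dotted lines at a ratio of 2 in each direction. No row lies in the band around 0, since the table holds no ratio under 1.5 in either direction, and Slc7a11-001 is the only member above a log2 ratio of 3.

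Ratios of transcripts at low levels moved most when 1 was added to the means. Totals over all libraries were as low as 14.4, for Slc14a1-001, with a median of 118 among members and 127 among all rows of the table. A group mean under 1 was found for 5 members, Abcb1a-001, Slc4a8-001, Slc14a1-001, Slc25a36-007 and Slc39a14-010. With 1 added to both means, 7 of the 45 ratios moved by over 1.5 times, namely these 5, Slc7a2-001 and Abca8a-201. Slc7a11-001 was little affected, with a ratio of 8.19 in place of 9.59. None of the 45 changed direction, since adding 1 to both means cannot reverse a ratio.

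**Figure D4:**
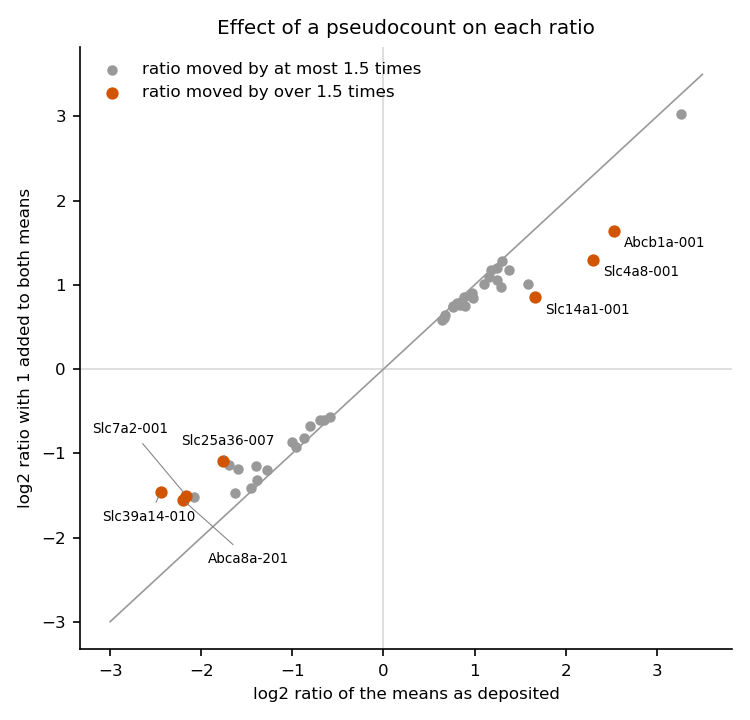
Log2 ratio of 44 members with 1 added to both group means against the log2 ratio of the means as deposited, where the diagonal marks no difference. The 7 named transcripts, 3 higher and 4 lower after ATP, moved towards 0 by over 1.5 times, while Slc7a11-001 at the upper right stayed near the diagonal.

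Markers of other cells in the culture moved in the same table. Of 8 fibroblast markers, 3 genes had rows (Col1a2, Col3a1 and Postn), all lower, with a summed level of 882 after ATP and 2979 in control cells. Most of that sum was Col3a1-001, with 826 after ATP and 2870 in control cells. Of 13 enteric neuron markers, 5 had rows, all higher, with a summed level of 220 after ATP and 109 in control cells. Most of that sum was Uchl1-002, with 155 after ATP and 82.1 in control cells. Of 8 smooth muscle markers, only Lmod1 had a row, with 1.28 after ATP and 3.27 in control cells. No macrophage or endothelial marker had a row, and of 10 enteric glia markers only Gfap had one, which was not usable because its total and means did not match. In such bulk libraries, fewer cells of a type and less RNA per cell cannot be told apart. The part of these markers in the transport results, in each group above, was not tested. The library codes in the titles fall into 3 number series, of which 1 holds 3 ATP libraries alone, 1 holds 2 control libraries alone and 1 holds 3 libraries of each group, and with no value per library the series and the treatment cannot be told apart.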

How the data were processed

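RNA of 6 ATP and 5 control cultures was read by 3′ mRNA-Seq, and the reads went through the authors' Partek pipeline, with aligner, build and annotation not given in the sources used here. They deposited 5 tables of transcripts, each with a total over all libraries and a mean per group, and a table of GO terms that was not used. In the gliosis table these deposited values look like estimated counts. The authors' values in the other 4 tables behave as a depth-scaled signal, by a method that is not stated. Each deposited total equalled the group means weighted by 6 ATP and 5 control libraries (relative difference under 1e-06) in all but 2 Gfap rows of the gliosis table and 1 of the table of significant genes, which was left out. Columns with the authors' p-values, adjusted p-values, ratios and fold changes hold their own comparison and were not used.

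Members were found by symbol, and each ratio was computed here from the deposited means (Python 3.11.15, pandas 2.3.3). No test was run, because only group means are given and the contrast chose the members. The members, the gene lists, the motifs and the alternatives were chosen with earlier results of these data known, and every member transcript is named but 1, which enters the counts and is not reported here. Alternatives were a pseudocount of 1, a larger group mean of at least 5, 1 transcript per gene, depth scaling undone by a median factor, other fold limits and other memberships. To undo the depth scaling, the gliosis table's ratio was divided by the other tables' ratio for 49 shared transcripts, and the median was used (1.16, range 0.977 to 1.27). All 40 genes were found in GENCODE M21 (GRCm38), from which the transcript ends were taken. Protein sequences were not used here. The ratio, the check of totals and the motif search were tested on simulated data, and the other steps were not.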

Additional observations from a re-analysis of the deposited data

How the results depend on the processing

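The counts of 26 members higher and 19 lower stayed within 1.5 times of these values under each alternative, at 21 to 28 higher and 15 to 19 lower. These counts could change only through rows added, left out or merged, since no alternative could reverse the direction of a member. The 13 members at least 2-fold higher became 8 when a group mean of at least 5 was required and 5 at a fold limit of 3. With the depth scaling undone by the median factor they became 20. The 13 at least 2-fold lower became 8 at a fold limit of 3. Under the other alternatives, including summing the transcripts of a gene, which was added after seeing the data, these counts lay within 1.5 times of 13. No member changed direction with a pseudocount of 1 or with the depth scaling undone by the median factor, but neither could have changed one. A pseudocount cannot reverse a ratio, and the log2 shift of 0.21 is smaller than the log2 ratio of any member. The smallest in size was -0.59, for Slc35b2-201. No paired analysis was possible because the tables hold no value per library, and for the same reason no library could be left out. By construction, the fold limit of 3 and the filter on the group mean left fewer rows, and a fold limit under 2 gave more, 19 higher and 15 lower.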

Other observations

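Other channel and transport genes of the table lack the prefixes used above. The following were picked after their values were seen and are given as values. The acid-sensing channel subunit Asic2-002 stood at 7.12 after ATP and at 3.64 in control cells. Orai2-001, a subunit of store-operated calcium channels, had 5.70 after ATP and 3.12 in control cells. Lrrc8d, a subunit of volume-regulated anion channels, was listed with means of 10.1 after ATP and 5.57 in control cells for Lrrc8d-001 and of 9.41 after ATP and 5.17 in control cells for Lrrc8d-002. These 3 genes were higher after ATP. Itpr2-001, a calcium release channel of the endoplasmic reticulum, had 14.3 after ATP and 23.6 in control cells, 1.64-fold lower. Fxyd3-002, a regulator of the sodium pump, had 31.4 after ATP and 63.0 in control cells, 2.01-fold lower.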
